A study of Mus musculus with 18 samples.

Results

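Mouse embryonic fibroblasts (MEFs) that had been turned into induced pluripotent stem cells (iPSCs) with 2 different sets of genes were compared. Of the 18 arrays of the series, 8 were used: 4 clones made with Oct4 and EpCAM plus EpEX (OE + EpEX) and 4 made with Klf4 and EpCAM plus EpEX (KE + EpEX). All 8 came from MEFs of E13.5 embryos that carried the reverse tetracycline transactivator (rtTA*M2) at the ROSA locus, on a B6.Cg background, and the POU5f1tm2Jae allele, which places GFP at the Oct4 locus, from B6.129S4-POU5f1tm2Jae/J mice. The MEFs were nucleofected with PiggyBac transposons holding PB-TET-EpCAM and either PB-TET-Oct4 or PB-TET-Klf4, plated on feeder cells in medium with LIF, and given doxycycline at 1.5 µg/mL for 21 days to switch the transgenes on. Both groups thus shared the inducible EpCAM, the EpEX, the doxycycline and the parental cells, and differed in the second transgene. Each sample is 1 clone, described as different clones by the study, so that no array separates a clone's own history from its group, and whether doxycycline was still present when RNA was taken is not given in the sources used here. The question of the comparison was whether the choice of Oct4 or Klf4 can still be read in the finished cells.

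EpCAM is an adhesion protein of epithelial and pluripotent cells, and EpEX is its outer domain, which is released by cleavage and can be added to cells as a soluble protein. Oct4, encoded by Pou5f1, is a POU-domain factor that binds an octamer in DNA and is needed for pluripotency. Klf4 is a zinc-finger factor that binds CACCC-like elements, and is active in the naive, inner cell mass-like state and in the change from mesenchymal to epithelial cells. Established iPSCs are known to be maintained by their own pluripotency genes.

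After 64 control probe sets were left out, 45037 were compared. A deposited value is a log2 level relative to the median of the same probe set over the 18 arrays, so that values can be compared between clones but not between genes, and it is not known which transcripts were detected. A gene symbol came with 931 probe sets. Of these, 904 had 1 symbol, for 687 genes, and 27 had several and were not named. The symbols come from the authors' lists of probe sets 10-fold or more above MEFs (452 with 1 symbol) and 10-fold or more below them (452), so every gene named here was picked for its difference from MEFs. Klf4 had no symbol, and its level is not given here. Pluripotency markers were at least 10-fold above the MEF mean in all 8 clones for 9 of 9 genes. Fibroblast markers were at least 10-fold below it for 8 of 8 genes with a symbol, of 11 looked for. Since only probe sets listed as 10-fold from MEFs had a symbol, these counts were largely set in advance and are no check of the clones. No trophoblast or primitive endoderm marker had a symbol.

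No probe set differed between OE + EpEX and KE + EpEX iPSCs by 2-fold or more with a limma adjusted p under 0.05 (0 of 45037, 0%), and none without the limit on the fold. The smallest adjusted p was 0.775. At an unadjusted p under 0.05 there were 2446 probe sets (5.43%), of which 1183 (2.63%) were higher in OE + EpEX and 1263 (2.80%) in KE + EpEX iPSCs. Group values did not overlap for 1633 probe sets (3.63%), with 644 (1.43%) higher in OE + EpEX and 989 (2.20%) in KE + EpEX iPSCs. Group means were at least 1 log2 unit apart for 55 probe sets (0.122%), 39 of them higher in OE + EpEX, and the groups overlapped in all but 6 of the 55.

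The 95% interval of the difference lay within −1 and 1 for 42821 probe sets (95.1%), so that a 2-fold difference of the means was outside it for most of the array. Among the 904 probe sets with a symbol it did so for 599 (66.3%). The intervals and tests use a spread pooled over all 5 groups of the series. When single clones were left out, 11 probe sets passed the test in the absence of OE + EpEX clone 3, 1 in the absence of OE + EpEX clone 4 and 1 in that of KE + EpEX clone 1, and 0 in that of each other clone.

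The clones of one group were on average about as far from each other as from the other group. The root mean square (RMS) log2 difference, taken over 45037 probe sets, averaged 0.357 for the 16 pairs of an OE + EpEX and a KE + EpEX clone, with a range of 0.278 to 0.444. It was 0.356 for the 12 pairs within a group, with a range of 0.223 to 0.470. The mean was 0.328 within OE + EpEX and 0.383 within KE + EpEX. The distance between minus within groups, 0.00117, had a one-sided exact permutation p = 0.314 over the 35 splits of 8 clones, of which the smallest possible p is 0.0286. The sign of this small difference turned to −0.026 with the 904 probe sets with a symbol and to −0.049 with the 1000 most variable probe sets.

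The nearest neighbour of 3 of the 8 clones belonged to the other group. OE + EpEX clone 4 was 0.278 from KE + EpEX clone 2 and 0.329 from the nearest clone of its own group. KE + EpEX clone 3 was 0.335 from OE + EpEX clone 1 and 0.360 from the nearest KE + EpEX clone, and KE + EpEX clone 4 was 0.331 from OE + EpEX clone 3 and 0.388 from the nearest KE + EpEX clone. The closest pairs of all were OE + EpEX clones 1 and 2 (0.223) and KE + EpEX clones 1 and 2 (0.243), so that each group held 1 close pair, while the furthest pair was KE + EpEX clones 1 and 4 (0.470). The first principal component, with 36.2% of the variance, was positive for OE + EpEX clone 4 (0.180), KE + EpEX clone 1 (0.220) and KE + EpEX clone 2 (0.115) and negative for the other 5 clones. Of the sum of squares over the 8 clones, 13.4% lay between the groups over all probe sets and 7.53% over those with a symbol.

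**Figure D1:**
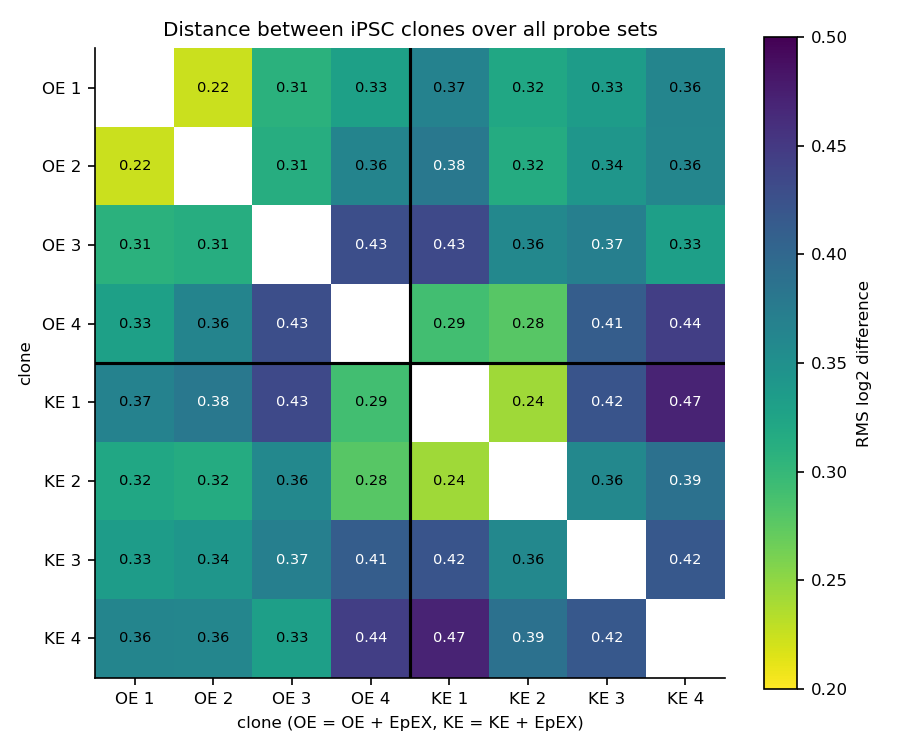
RMS log2 difference over 45037 probe sets for each pair of the 8 iPSC clones, with OE + EpEX clones first and black lines between the groups. Yellow pairs are near and dark pairs far. The block between the groups (mean 0.357) is on average darker than the OE + EpEX block (0.328) and paler than the KE + EpEX block (0.383). The mean of all pairs within a group was 0.356.

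The pluripotency network was compared gene by gene. Of its core factors, 14 of 17 had a symbol. None passed the test, 1 had an unadjusted p under 0.05 (5.43% of all probe sets did), and the median difference was −0.03, beside −0.02 over all probe sets and 0.02 over those with a symbol. For 10 of the 14 the 95% interval lay within −1 and 1. Nanog, the homeodomain factor that holds cells in the pluripotent state, was 0.09, 0.26, 0.26 and 0.33 in OE + EpEX clones 1 to 4 and 0.46, 0.49, −0.15 and 0.50 in KE + EpEX clones 1 to 4. The groups overlapped, and the difference was −0.09 (95% interval −0.36 to 0.18, limma adjusted p = 1). Sox2, the partner of Oct4 on DNA, was 0.02, −0.05, 0.36 and −0.15 in OE + EpEX clones 1 to 4 and −0.06, −0.02, −0.06 and 0.48 in KE + EpEX clones 1 to 4, with a difference of −0.04 (95% interval −1.04 to 0.96, limma adjusted p = 1). Sall4, a zinc-finger factor of the same network, differed by −0.07 (95% interval −0.26 to 0.12, limma adjusted p = 0.999).

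Pou5f1 was given as a transgene to OE + EpEX clones only. It was 0.02, −0.17, 2.18 and −0.32 in OE + EpEX clones 1 to 4 and −0.26, −0.02, −0.15 and 0.02 in KE + EpEX clones 1 to 4, so that OE + EpEX clone 3 stood alone while the other 3 OE + EpEX clones lay near the KE + EpEX clones, clone 4 just below their lowest. The difference was 0.53 (95% interval −0.29 to 1.34, limma adjusted p = 0.957), and −0.06 without OE + EpEX clone 3. In mESCs this probe set averaged 5.65 and in MEFs −3.68, so that all 8 clones lay between the 2. Whether this probe set reads the transgene, the endogenous transcript or both is not given in the sources used here. Epcam, carried as a transgene by both groups, was 0.26, 0.09, 0.53 and 0.39 in OE + EpEX clones 1 to 4 and 0.10, 0.11, 0.28 and −0.36 in KE + EpEX clones 1 to 4, with overlapping groups and a difference of 0.29 (95% interval −0.03 to 0.60, limma adjusted p = 0.924).

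Naive pluripotency genes, which mark the inner cell mass state, had symbols for 11 of 16. None passed the test, and 1 with OE + EpEX higher and 2 with KE + EpEX higher had an unadjusted p under 0.05, beside 2.63% and 2.80% of all probe sets. Their median difference was −0.15, with 9 of 11 means higher in KE + EpEX. Esrrb, an orphan nuclear receptor and an activator of the naive network, was −0.15, −0.15, −0.22 and 0.06 in OE + EpEX clones 1 to 4 and 0.26, 0.06, −0.01 and 0.14 in KE + EpEX clones 1 to 4, and its difference was −0.22 (95% interval −0.41 to −0.04, limma adjusted p = 0.896). Prdm14, which represses lineage genes, was −0.38, −0.23, −0.07 and 0.53 in OE + EpEX clones 1 to 4 and 0.67, 0.61, −0.19 and 0.48 in KE + EpEX clones 1 to 4, with a difference of −0.43 (95% interval −0.83 to −0.03, limma adjusted p = 0.913). In both genes OE + EpEX clone 4 was the highest of its group and lay within the range of the KE + EpEX clones. Klf5, a relative of Klf4, had a difference of 0.09 (95% interval −0.67 to 0.85, limma adjusted p = 1). Of the Dppa family, which are markers of pluripotent and early germ cells, 4 of 5 genes had a symbol, none passed the test and the median difference was −0.13.

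Epiblast genes rise as cells leave the naive state. Of 16, 6 had a symbol, and 5 of these 6 had a higher mean in OE + EpEX iPSCs, with a median difference of 0.55. None passed the test, and 1 had an unadjusted p under 0.05, beside 5.43% of all probe sets. The median of the list in each clone was lowest in OE + EpEX clone 4 (−0.55), KE + EpEX clone 1 (−0.80) and KE + EpEX clone 2 (−0.53), the 3 clones in which fibroblast matrix genes were high, and −0.15 to 0.65 in the other 5. The part of this in the difference between the groups was not tested. Dnmt3l, a cofactor of the de novo DNA methyltransferases, was 1.14, 0.82, 0.79 and −0.06 in OE + EpEX clones 1 to 4 and −0.52, −0.20, 1.40 and −0.64 in KE + EpEX clones 1 to 4. Clones of both groups were high (OE + EpEX 1 to 3 and KE + EpEX 3) and clones of both groups were low, and the difference was 0.66 (95% interval −0.06 to 1.39, limma adjusted p = 0.924). Dnmt3b, a de novo DNA methyltransferase, had a difference of 0.56 (95% interval −0.04 to 1.16, limma adjusted p = 0.924). Lin28a, an RNA-binding protein that blocks let-7 maturation, was 0.38, 0.02, 0.11 and −0.84 in OE + EpEX clones 1 to 4 and −1.08, −0.76, −0.61 and −0.02 in KE + EpEX clones 1 to 4, with a difference of 0.54 (95% interval 0.02 to 1.06, limma adjusted p = 0.915). Otx2, a homeobox factor of the epiblast, ranged from −1.43 to 1.17 within OE + EpEX and from −2.24 to 0.32 within KE + EpEX clones. The list's median lay between 0.38 and 0.81 with each clone left out in turn. Lin28a is also in the core list.

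**Figure D2:**
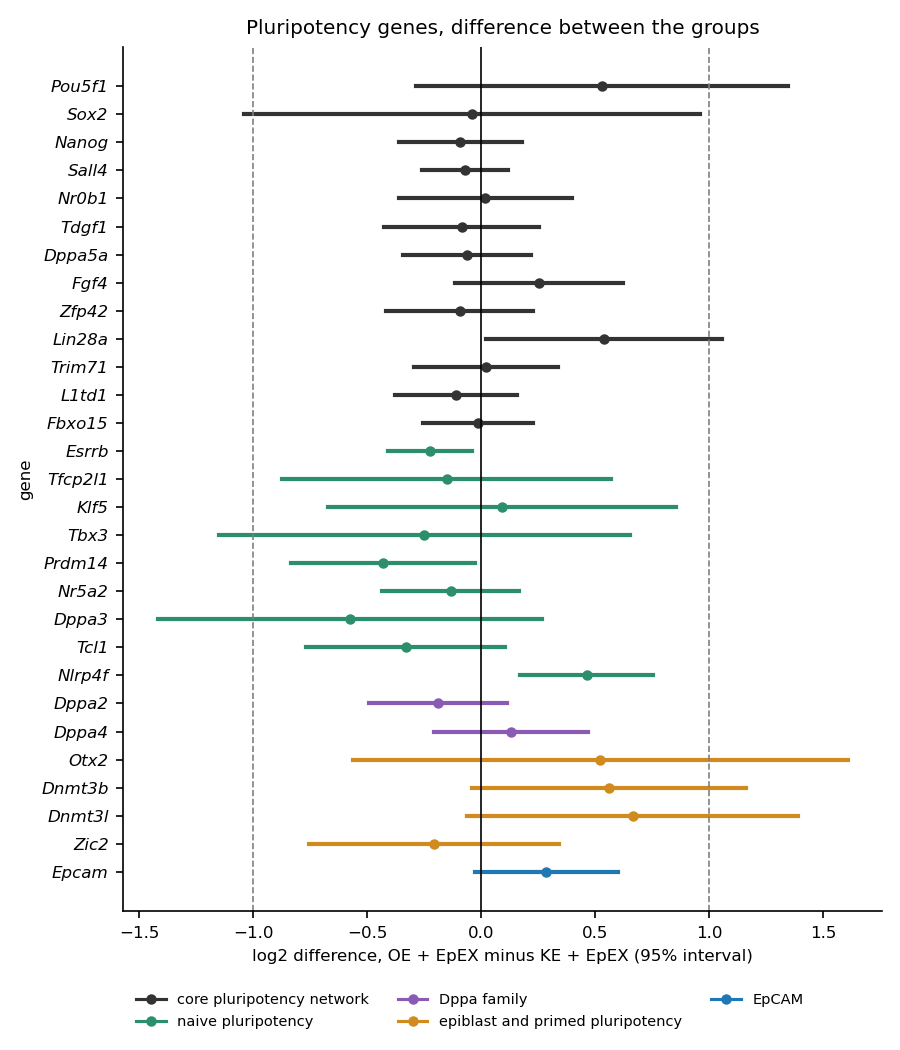
Log2 difference of OE + EpEX minus KE + EpEX (points) with its 95% interval from limma (lines) for the pluripotency genes reported here, coloured by list, with dashed lines at −1 and 1. Most intervals include 0, those of Esrrb, Prdm14, Nlrp4f and Lin28a do not, and no gene had an adjusted p under 0.05.

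Among all 904 probe sets with a symbol, 34 (3.76%) had an unadjusted p under 0.05, beside 5.43% of all probe sets, and the groups did not overlap for 10 (1.11%), beside 3.63%. Of these 10, 6 were higher in OE + EpEX and 4 in KE + EpEX iPSCs. The differences ranged from −0.93 to 1.05. The 19 probe sets higher in OE + EpEX were from 18 genes, and the 15 higher in KE + EpEX from 14 genes. 

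Besides Tdrd12, Nlrp4f and Aass, described next, the groups were apart with OE + EpEX higher in Hspb6, Timeless and AI467606. Hspb6, a small heat shock protein, was −0.11, 0.13, 0.34 and 0.28 in OE + EpEX clones 1 to 4 and −0.37, −0.15, −0.19 and −0.47 in KE + EpEX clones 1 to 4, with a difference of 0.45 (95% interval −0.54 to 1.45, limma adjusted p = 0.989). Timeless, a protein of the replication fork, differed by 0.12 (95% interval −0.02 to 0.26, limma adjusted p = 0.928) and AI467606 by 0.15 (95% interval 0.00 to 0.31, limma adjusted p = 0.915). With KE + EpEX higher the groups were apart in Fmod, BC052688, Mreg and Fxyd1. Fmod, a collagen-binding proteoglycan, was −0.41, −0.12, −0.26 and −0.35 in OE + EpEX clones 1 to 4 and −0.01, −0.01, 0.19 and 0.01 in KE + EpEX clones 1 to 4. Its difference in this probe set was −0.33 (95% interval −1.01 to 0.35, limma adjusted p = 0.985). In another Fmod probe set the groups overlapped, with a difference of −0.11 (95% interval −0.72 to 0.49). BC052688 was 0.08, −0.19, 0.01 and −0.01 in OE + EpEX clones 1 to 4 and 0.35, 0.27, 0.12 and 0.98 in KE + EpEX clones 1 to 4, with a difference of −0.46 (95% interval −0.82 to −0.10, limma adjusted p = 0.895). Mreg, a protein of organelle transport in pigment cells, differed by −0.20 (95% interval −0.43 to 0.02, limma adjusted p = 0.924), and Fxyd1, a regulator of the sodium pump, by −0.15 (95% interval −1.90 to 1.59, limma adjusted p = 1). The differences of these 7 genes were between −0.46 and 0.45.

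The 5 genes with the smallest p in each direction were Tdrd12, Nlrp4f, Psma8, Smagp and Aass, higher in OE + EpEX, and Aurkc, Lrrc34, Gca, Ccdc160 and Dazl, higher in KE + EpEX iPSCs.

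Tdrd12, a Tudor-domain helicase of the piRNA pathway, which silences transposons in germ cells, was 0.06, 0.25, 0.70 and −0.02 in OE + EpEX clones 1 to 4 and −0.41, −0.06, −0.22 and −0.49 in KE + EpEX clones 1 to 4. The groups did not overlap, although OE + EpEX clone 4 and KE + EpEX clone 2 lay close together, and the difference was 0.54 (95% interval 0.25 to 0.83, limma adjusted p = 0.813). Nlrp4f, an NLR-family gene of oocytes and early embryos, was 0.59, 0.27, 0.16 and 0.10 in OE + EpEX clones 1 to 4 and 0.05, −0.05, −0.21 and −0.51 in KE + EpEX clones 1 to 4, again without overlap, and its difference was 0.46 (95% interval 0.17 to 0.75, limma adjusted p = 0.867). Aass, the enzyme that begins lysine breakdown, had 4 higher values in OE + EpEX (0.29, 0.12, 0.83 and 0.04) than in KE + EpEX clones (−0.28, −0.09, −0.43 and −0.06), with a difference of 0.53 (95% interval 0.16 to 0.91, limma adjusted p = 0.867). Psma8, a proteasome subunit of male germ cells, differed by 0.48 (95% interval 0.17 to 0.78, limma adjusted p = 0.867), and Smagp, a small membrane glycoprotein of epithelia, by 0.51 (95% interval 0.16 to 0.85, limma adjusted p = 0.867). In Psma8 and in Smagp OE + EpEX clone 4 lay among the KE + EpEX clones.

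Aurkc, the Aurora kinase of meiosis, was −0.79, −0.31, −0.23 and 0.51 in OE + EpEX clones 1 to 4 and 0.43, 0.50, 0.39 and 0.54 in KE + EpEX clones 1 to 4. The 4 KE + EpEX clones and OE + EpEX clone 4 were high together, and the difference was −0.67 (95% interval −1.09 to −0.24, limma adjusted p = 0.867). Gca, a calcium-binding protein, was −0.11, 0.02, −0.02 and 0.50 in OE + EpEX clones 1 to 4 and 0.64, 0.61, 0.65 and 0.46 in KE + EpEX clones 1 to 4, which is the same arrangement of clones, with a difference of −0.49 (95% interval −0.82 to −0.16, limma adjusted p = 0.867). Lrrc34, a leucine-rich repeat protein of pluripotent cells, differed by −0.48 (95% interval −0.78 to −0.17, limma adjusted p = 0.867) and Ccdc160 by −0.53 (95% interval −0.93 to −0.13, limma adjusted p = 0.877). Dazl, an RNA-binding protein of germ cells, was −0.61, −0.38, −0.81 and −0.11 in OE + EpEX clones 1 to 4 and −0.10, −0.45, 0.74 and 0.10 in KE + EpEX clones 1 to 4, so that KE + EpEX clone 3 stood above the rest. Its difference was −0.55 (95% interval −0.96 to −0.14, limma adjusted p = 0.873), and its other probe set gave −0.51 (95% interval −0.92 to −0.09, limma adjusted p = 0.896).

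Of these 10 genes, the groups were apart in Tdrd12, Nlrp4f and Aass and overlapped in the other 7. Of the 4 OE + EpEX clones, clone 4 was the nearest to the KE + EpEX group in 13 of the 19 probe sets higher in OE + EpEX and in 13 of the 15 higher in KE + EpEX iPSCs. Over all probe sets with an unadjusted p under 0.05 it was so in 58.0% of 1183 and 27.2% of 1263. Of the KE + EpEX clones, clone 1 was the nearest to OE + EpEX in 8 of the 19 (16.1% over all) and clone 3 in 5 of them (29.7%), while in the 15 clone 3 was so in 11 (25.4% over all) and clone 1 in 1 (17.5%). Germline and 2-cell-like genes, to which Tdrd12 and Dazl belong, were higher in OE + EpEX by their mean for 5 and lower for 5 of 10 with a symbol, with a median difference of −0.04. An unadjusted p under 0.05 was found for 1 with OE + EpEX higher and 2 with KE + EpEX higher, beside 2.63% and 2.80% of all probe sets. The groups did not overlap for 1, beside 3.63%. Sycp3, a protein of the meiotic chromosome axis, was −0.37, 0.09, −0.47 and −0.04 in OE + EpEX clones 1 to 4 and −0.10, 0.12, 1.31 and 0.04 in KE + EpEX clones 1 to 4, where KE + EpEX clone 3 alone was high. Piwil2, a piRNA-binding protein, was high in OE + EpEX clones 1 (0.72) and 2 (0.83) and in KE + EpEX clone 3 (0.62), and between −0.70 and −0.06 in the other 5.

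**Figure D3:**
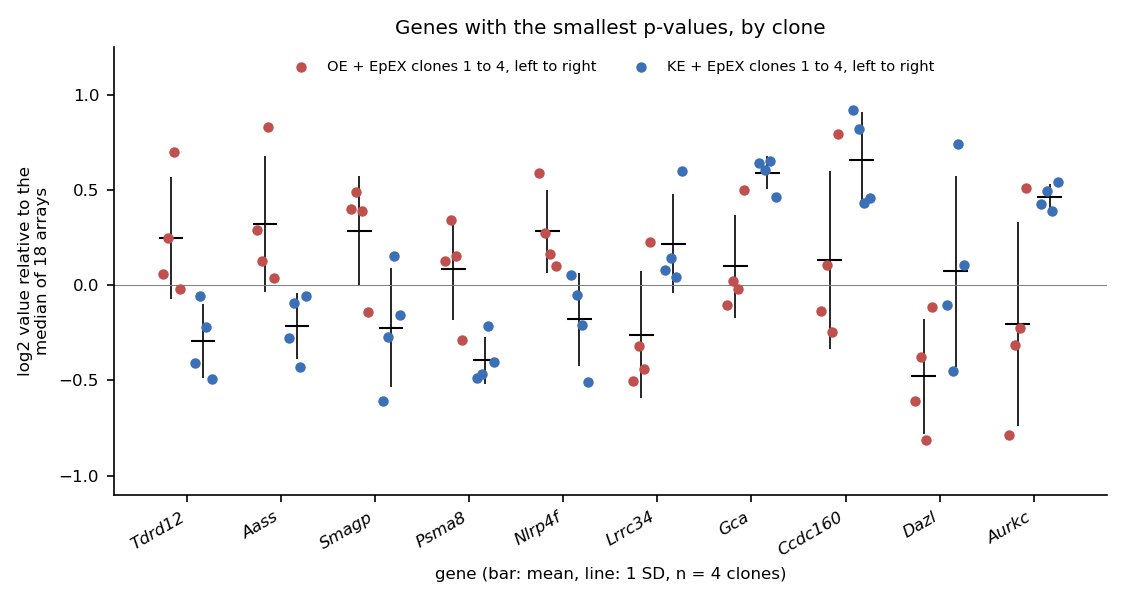
Log2 value relative to the median of 18 arrays for the 5 genes with the smallest limma p in each direction, with clones 1 to 4 from left to right in each group (points), the mean (bar) and 1 SD (line). OE + EpEX clone 4 lies among the KE + EpEX clones for Aurkc, Gca, Ccdc160, Lrrc34, Dazl, Psma8 and Smagp.

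The promoters of 4 of these genes are given to show which letters lie near their starts, with 250 bases before and 50 after the start from RefSeq (GRCm38.p6). Capitals mark an octamer (ATGCAAAT) or a Klf motif (GGGTGTGG) on either strand, and the 2 motifs overlap in no promoter shown. Tdrd12 and Aurkc are shown as the genes with the smallest p in each direction, and Pnma5 and Smagp as the 2 that held a motif.
Tdrd12 promoter, chr7:35537666-35537965, minus strand: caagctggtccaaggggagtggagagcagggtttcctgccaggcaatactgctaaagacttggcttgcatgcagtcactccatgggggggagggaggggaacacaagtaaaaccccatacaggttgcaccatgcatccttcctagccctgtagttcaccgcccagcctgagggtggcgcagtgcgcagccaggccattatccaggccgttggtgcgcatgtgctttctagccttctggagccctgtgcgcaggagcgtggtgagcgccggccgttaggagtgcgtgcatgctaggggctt
Aurkc promoter, chr7:6995135-6995434, plus strand: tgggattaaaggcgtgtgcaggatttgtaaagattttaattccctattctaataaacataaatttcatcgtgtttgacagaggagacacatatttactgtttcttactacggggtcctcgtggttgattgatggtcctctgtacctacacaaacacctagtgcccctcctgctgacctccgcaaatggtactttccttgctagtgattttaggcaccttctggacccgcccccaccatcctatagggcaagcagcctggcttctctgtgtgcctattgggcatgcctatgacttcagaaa
Pnma5 promoter, chrX:73037054-73037353, minus strand: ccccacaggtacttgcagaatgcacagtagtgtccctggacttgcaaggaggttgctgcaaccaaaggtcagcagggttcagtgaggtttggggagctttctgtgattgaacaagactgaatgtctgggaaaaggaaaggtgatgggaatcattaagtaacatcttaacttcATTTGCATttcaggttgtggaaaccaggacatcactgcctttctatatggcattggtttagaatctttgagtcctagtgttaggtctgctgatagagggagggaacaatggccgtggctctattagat
Smagp promoter, chr15:100635510-100635809, minus strand: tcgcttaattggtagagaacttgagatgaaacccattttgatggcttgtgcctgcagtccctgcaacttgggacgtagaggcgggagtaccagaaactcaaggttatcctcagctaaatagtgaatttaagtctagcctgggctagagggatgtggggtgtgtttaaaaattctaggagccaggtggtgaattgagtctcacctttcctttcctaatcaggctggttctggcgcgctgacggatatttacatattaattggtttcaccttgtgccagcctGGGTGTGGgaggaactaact

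The octamer was found for 532 of 27025 genes with a promoter in the table (1.97%) and the Klf motif for 1106 (4.09%), counting a gene with any of its starts. Of the genes with a symbol, 481 of 687 had a promoter there, and 15 (3.12%) held the octamer and 25 (5.20%) the Klf motif. Among genes with an unadjusted p under 0.05, 1 of 14 higher in OE + EpEX held the octamer (Pnma5) and 1 of the same 14 the Klf motif (Smagp, in its second start), and 0 of 10 higher in KE + EpEX held either. Pnma5, a member of the paraneoplastic antigen Ma family, was 0.20, 0.44, 0.77 and −0.03 in OE + EpEX clones 1 to 4 and −0.56, −0.33, 0.13 and 0.28 in KE + EpEX clones 1 to 4, with a difference of 0.47 (95% interval 0.09 to 0.84, limma adjusted p = 0.896). Of 9 genes with a promoter whose groups did not overlap, 0 held either motif. These matches are letters in a window, not binding sites.

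Fibroblast genes ordered the clones in a way that cut across the groups. In OE + EpEX clone 4, KE + EpEX clone 1 and KE + EpEX clone 2 the matrix genes below were high, and in KE + EpEX clones 3 and 4 they were low, so that the widest range was within KE + EpEX. The matrix and surface list had 16 of 30 genes with a symbol. Its median over genes was 0.07, −0.06, 0.34 and 0.95 in OE + EpEX clones 1 to 4 and 1.53, 0.66, −0.53 and −0.67 in KE + EpEX clones 1 to 4. None of the 16 passed the test, 0 had an unadjusted p under 0.05, and the median difference was 0.25. For 9 of the 16 the 3 highest of the 8 clones were OE + EpEX 4, KE + EpEX 1 and KE + EpEX 2, and for 13 the 2 lowest were KE + EpEX 3 and 4. Over all probe sets those shares were 5.74% and 4.44%, and over the 452 fibroblast-high probe sets 32.3% and 34.3%. The clone medians of these 452 were 0.02, −0.04, −0.01 and 0.36 in OE + EpEX clones 1 to 4. In KE + EpEX clones 1 to 4 they were 0.52, 0.07, −0.26 and −0.20, so that KE + EpEX clone 2 stood out less there.

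Col3a1, a fibrillar collagen chain, was 0.27, −0.09, 0.96 and 2.67 in OE + EpEX clones 1 to 4 and 3.01, 1.58, −0.54 and −0.60 in KE + EpEX clones 1 to 4. The 3 high clones were at least 1.58 and the other 5 at most 0.96, and the difference between the groups was 0.09 (95% interval −1.72 to 1.90, limma adjusted p = 1). Ogn, a small leucine-rich proteoglycan, was 0.79, 0.53, 0.68 and 2.96 in OE + EpEX clones 1 to 4 and 3.93, 3.06, −1.20 and −0.77 in KE + EpEX clones 1 to 4, with the 3 clones between 2.96 and 3.93. Its difference was −0.01 (95% interval −1.96 to 1.93, limma adjusted p = 1). The spread within each group was many times the difference, but Ogn was named for its distant clones. Cdh11, a cadherin of mesenchymal cells, was 0.39, −0.04, 0.51 and 1.24 in OE + EpEX clones 1 to 4 and 2.70, 1.55, −2.36 and −2.42 in KE + EpEX clones 1 to 4. Here the KE + EpEX clones held both the highest and the lowest values, 2.70 and −2.42, and the difference was 0.66 (95% interval −1.13 to 2.45, limma adjusted p = 0.999).

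Col3a1, Ogn and Cdh11, and below Ptn, Ptx3, Timp2, Mgp and Postn, were named for lying far from the rest in single clones. Their wide spread between clones was thus set by the choice. Ptn, a heparin-binding growth factor, was 1.18, 0.65, 1.18 and 1.87 in OE + EpEX clones 1 to 4 and 3.22, 2.16, −1.70 and −1.44 in KE + EpEX clones 1 to 4, with a difference of 0.66 (95% interval −1.05 to 2.37, limma adjusted p = 0.999). Ptx3, a pentraxin of innate immunity, was 0.23, 0.00, 0.51 and 2.53 in OE + EpEX clones 1 to 4 and 3.004, 2.20, −0.27 and −0.16 in KE + EpEX clones 1 to 4. Timp2, an inhibitor of metalloproteinases, was 1.26, 0.24, 0.00 and 2.70 in OE + EpEX clones 1 to 4 and 2.47, 1.09, −1.86 and −0.53 in KE + EpEX clones 1 to 4 by its most variable probe set. The same 3 clones were the highest in Ptn and Ptx3, while in Timp2 OE + EpEX clone 1 exceeded KE + EpEX clone 2. Mgp, an inhibitor of calcification in matrix, was lowest in KE + EpEX clone 3 (−3.07), Postn, a matricellular protein, in KE + EpEX clone 4 (−2.77), and Tnc, another matricellular protein, in KE + EpEX clone 4 (−2.43).

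Mesenchymal regulators and receptors had 9 of 17 genes with a symbol. None passed the test, the median difference was 0.10, and the clone medians were 0.69 in OE + EpEX clone 4, 1.14 in KE + EpEX clone 1 and 0.35 in KE + EpEX clone 2, against −0.39 to 0.06 in the other 5. Pdgfrb, the receptor for PDGF-B on mesenchymal cells, was −0.03, −0.09, −0.23 and 0.30 in OE + EpEX clones 1 to 4 and 1.58, 0.64, −0.39 and −1.81 in KE + EpEX clones 1 to 4. Prrx1, a mesenchymal homeobox factor, had 3 probe sets that gave differences from −0.31 to 0.57, so that its direction is uncertain. Not every gene followed: Mmp3, a stromelysin, was highest in OE + EpEX clone 3 (1.09) and between −0.40 and 0.20 in the other clones. Epithelial genes, the opposite side of the transition, had 6 of 26 with a symbol, none passed the test, and Cdh1, the epithelial cadherin, was −0.06, −0.01, 0.36 and 0.18 in OE + EpEX clones 1 to 4 and 0.19, 0.19, 0.10 and −0.42 in KE + EpEX clones 1 to 4.

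The same clones were also set apart in some genes that are high in pluripotent cells. Dppa3, also called Stella, a maternal factor that protects DNA methylation marks, was −0.02, 0.03, 1.12 and 2.23 in OE + EpEX clones 1 to 4 and 1.82, 1.995, 0.90 and 0.94 in KE + EpEX clones 1 to 4, with the 3 clones highest. Cidea, a lipid droplet protein, which was named after its values were seen for having the lowest difference among probe sets with a symbol, was −0.03, 0.53, −0.14 and 1.87 in OE + EpEX clones 1 to 4 and 1.96, 2.22, 0.73 and 1.04 in KE + EpEX clones 1 to 4, with a difference of −0.93 (95% interval −1.73 to −0.13, limma adjusted p = 0.9). Of the 452 probe sets higher in pluripotent cells than in MEFs, OE + EpEX 4, KE + EpEX 1 and KE + EpEX 2 were the 3 lowest for 76 (16.8%) and the 3 highest for 41 (9.07%), beside 5.94% and 5.74% of all probe sets. Nanog, Sox2 and Esrrb were between −0.22 and 0.50 in all 8 clones.

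**Figure D4:**
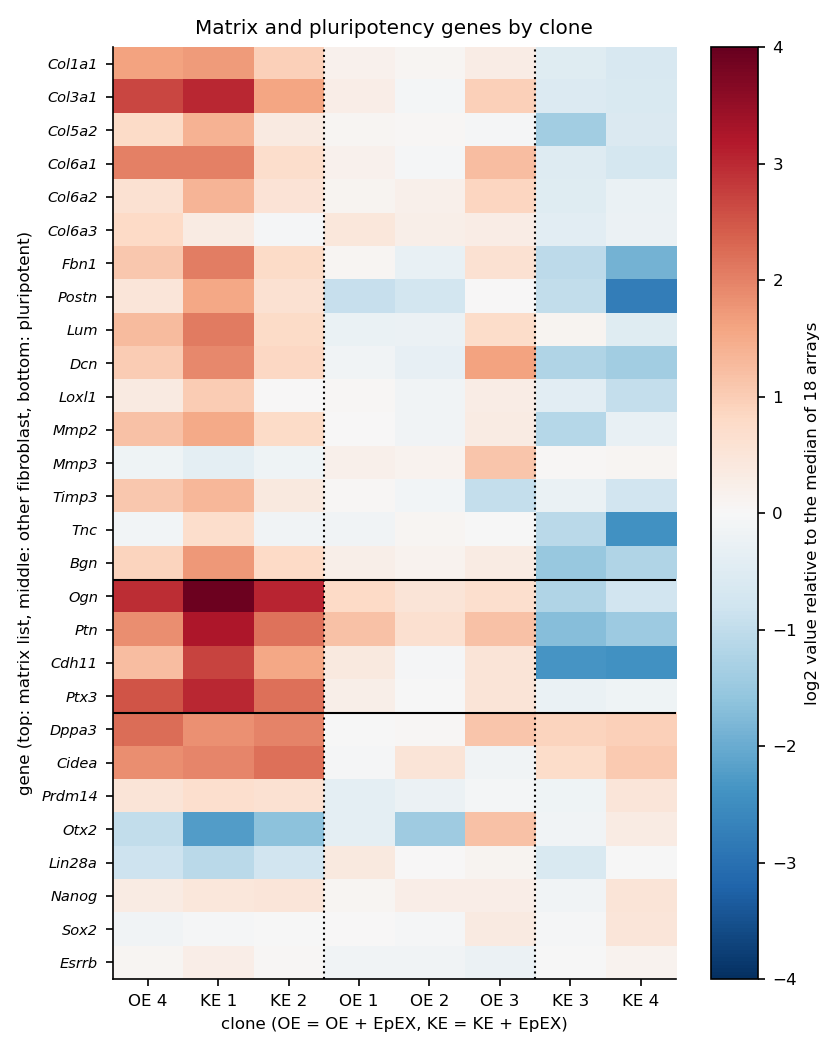
Log2 value relative to the median of 18 arrays (red high, blue low, from −4 to 4) for the 16 matrix genes, 4 further fibroblast genes and 8 genes high in pluripotent cells. Clones were placed by hand in blocks that were high, middle and low in matrix genes, with dotted lines around the middle 3, and are not sorted within a block. OE + EpEX clone 4 was placed beside KE + EpEX clones 1 and 2 for its high matrix genes, and KE + EpEX clones 3 and 4 had low ones. The order was chosen from these values, so it is no test of the second transgene.

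The cells were grown on feeder cells, which were MEFs, and fibroblast markers were looked at in each clone. Of 11 fibroblast markers, 8 had a symbol (Col1a1, Col3a1, Postn, Lum, Dcn, Twist1, Prrx1 and Pdgfrb). All 8 markers are members of the matrix or mesenchymal lists above, so that they follow the same pattern was set by the choice of genes. Their summed linear value relative to each gene's median was 7.14 to 19.9 in OE + EpEX and 4.56 to 30.4 in KE + EpEX clones. Their clone medians were at most 1.82 on the log2 scale, against 5.12 to 6.83 in the MEF arrays. Since values are relative, no marker can be said to be at 0. The part of feeder cells or of unconverted MEFs in the result was not tested, and in such bulk samples a change in the number of these cells and a change of RNA per cell cannot be told apart.

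Clones were also examined one at a time, bearing in mind that a single clone varies more than a mean of 4. In 1958 probe sets (4.35%) at least 1 clone was 1 log2 unit or more from the median of the other 7, and in 55 of these the group means were at least 1 apart. The number ranged from 224 in OE + EpEX clone 1 to 762 in KE + EpEX clone 4, with 238, 509 and 567 in OE + EpEX clones 2 to 4 and 615, 231 and 550 in KE + EpEX clones 1 to 3. OE + EpEX clone 4 departed upward in 511 of its 567, KE + EpEX clone 1 in 452 of its 615, and KE + EpEX clones 3 and 4 downward in 361 of 550 and 438 of 762. OE + EpEX clone 3 departed from the median of the other 7 by 2.33 in Pou5f1, 2.15 in Otx2 and −1.82 in Pmp22, a myelin protein. OE + EpEX clone 1 departed by 1.39 in Egr1, an immediate-early factor, and by 1.22 in Id3, a target of BMP signals.

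**Figure D5:**
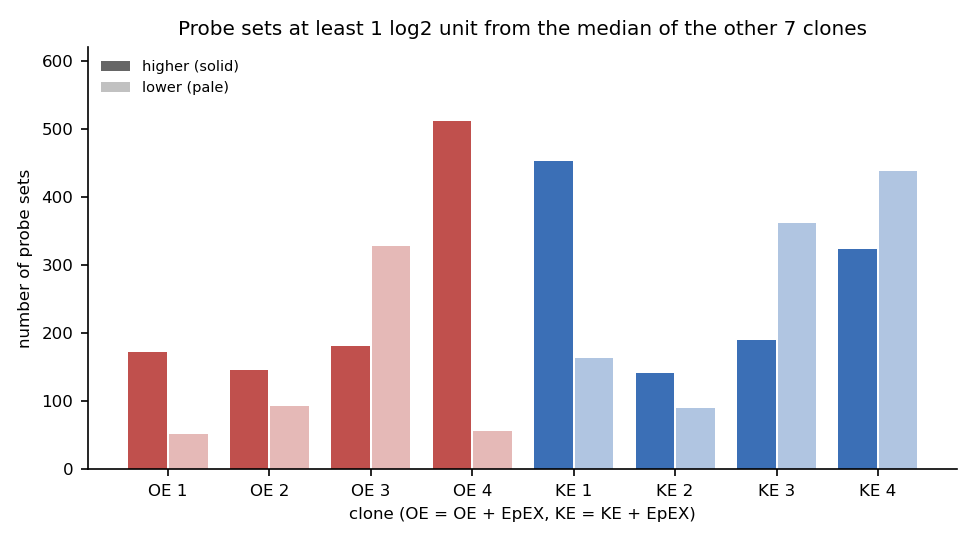
Number of probe sets in which a clone was at least 1 log2 unit higher (solid) or lower (pale) than the median of the other 7 clones, in OE + EpEX (red) and KE + EpEX (blue) clones. OE + EpEX clone 4 and KE + EpEX clone 1 rise in 511 and 452 probe sets, and KE + EpEX clones 3 and 4 fall in 361 and 438.

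Of the 55 probe sets with means at least 1 apart, 2 had a symbol. Egr1 was 0.94, 0.10, 0.29 and −0.76 in OE + EpEX clones 1 to 4 and 0.00, −0.45, −1.64 and −1.53 in KE + EpEX clones 1 to 4, with a difference of 1.05 (95% interval 0.14 to 1.96, limma adjusted p = 0.9), and S1pr3, a sphingosine 1-phosphate receptor, was 0.55, 0.32, 1.20 and 1.54 in OE + EpEX clones 1 to 4 and 1.90, 0.96, −2.05 and −1.31 in KE + EpEX clones 1 to 4, with a difference of 1.03 (95% interval −0.31 to 2.38, limma adjusted p = 0.949). In both the groups overlapped. Among probe sets without a symbol, 1420334_at had the smallest p of all. It was 0.22, 0.69, 0.71 and 0.28 in OE + EpEX clones 1 to 4 and −0.41, 0.05, −0.44 and −0.34 in KE + EpEX clones 1 to 4, without overlap, and differed by 0.76 (95% interval 0.48 to 1.05, limma adjusted p = 0.775). The probe set 1427760_s_at was 1.63, 0.99, 0.59 and 1.13 in OE + EpEX clones 1 to 4 and 0.61, −0.68, −1.11 and −0.45 in KE + EpEX clones 1 to 4 and differed by 1.49 (95% interval 0.91 to 2.08, limma adjusted p = 0.775). It was the 1 probe set that passed the test without KE + EpEX clone 1 (limma log2 difference 1.83, adjusted p = 0.0081). The 1 probe set that passed without OE + EpEX clone 4 (1.08, limma adjusted p = 0.0059) had no symbol either. Higher in KE + EpEX were 1439178_at, by −0.51 (95% interval −0.72 to −0.30, limma adjusted p = 0.775), and 1446036_at, by −0.46 (95% interval −0.67 to −0.26, limma adjusted p = 0.775), and in both the groups did not overlap.

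The 11 probe sets that passed without OE + EpEX clone 3 were all higher in OE + EpEX and had no symbol. Their medians were 1.75, 1.64 and 1.92 in OE + EpEX clones 1, 2 and 4, −0.27 in OE + EpEX clone 3, and −0.14 to 0.24 in the 4 KE + EpEX clones. These probe sets were chosen for passing once that clone was left out, so the place of OE + EpEX clone 3 here is set by the choice, and with all clones in the fit the differences were 0.70 to 1.85. Leaving out OE + EpEX clone 4 and KE + EpEX clones 1 and 2 together, which was chosen after the data were seen, gave 28 probe sets (26 higher in OE + EpEX). They included Bgn, Cdh11, Ptn, Prrx1 and S1pr3, and since the clones were left out for the values of such genes, this count is a description only.

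No gene of the remaining lists passed the test. Nodal, BMP, FGF and Wnt signals had 4 of 22 genes with a symbol, and the median difference was 0.12. Fgf4, a growth factor secreted by pluripotent cells, differed by 0.25 (95% interval −0.11 to 0.62, limma adjusted p = 0.952) and Nodal, a ligand of the TGF-β family, by −0.01 (95% interval −0.52 to 0.49, limma adjusted p = 1). Of 20 imprinted genes, Dlk1 (0.00) and Phlda2 (0.33) had symbols. Of the sex-linked genes, Ddx3y and Eif2s3y on the Y chromosome differed by −0.20 and −0.22 and Xist, the RNA that silences 1 X chromosome, by −0.04. Tfap2c, a trophoblast and germ cell factor, was the 1 germ layer and trophoblast gene with a symbol (−0.15). Solute carriers, 15 of 15, had 2 with an unadjusted p under 0.05, beside 5.43% of all probe sets, and a median of 0.09. The contractile list had 0 of 18 genes with a symbol.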

How the data were processed

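Total RNA was hybridized to Affymetrix mouse arrays, 1 per sample. Array values were made by the authors in GeneSpring GX, and the submitters' processing notes name MAS5 and RMA without saying which made these values. They deposited log2 values, with each probe set shifted to a median of 0 over 18 arrays, and lists of probe sets whose fold changes against the MEF mean were not used. The gene symbols (deposited as text, other than measurements) were taken from these lists, and so was the side, above or below MEFs, on which a probe set was listed. That side defined the fibroblast-high and pluripotent-high probe sets. The 8 arrays had medians from −0.0204 to 0.0041, 0 missing values and no identical pair. Detection is unknown, and 4 clones per group limit the precision. The samples are different clones. The limma p-values and intervals use a spread pooled over all 5 groups, so they do not measure the spread between the 8 clones alone. For Fxyd1 the SD was 0.05 in OE + EpEX and 0.07 in KE + EpEX clones, while the standard error was 0.82.

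Probe sets were tested with limma (3.58.1, R 4.3.3) on all 18 arrays with 5 group means, Benjamini-Hochberg adjusted over 45037 probe sets. The fit was tested on simulated data. Python 3.11.15 (numpy 2.4.6, pandas 2.3.3, scipy 1.17.1, matplotlib 3.10.9) was used otherwise. Members and lists were chosen with earlier results of these data known. Named by rule were the genes with a symbol of the given-factor, core, naive and Dppa lists, those called in any fit with a clone left out, the 8 highest and 8 lowest without overlap, the 5 smallest p in each direction, the 4 farthest in each clone, and from each other list the 2 largest differences and the 2 largest ranges. A gene of the core list, included in the counts, is not reported here by name. At most 2 probe sets without a symbol were printed in each direction. A gene was represented by its most variable probe set, but Fmod by the one without overlap. Genes outside the rule (Cidea, Pnma5, Cdh1, Mmp3, Bgn and others given for a count) were chosen after their values were seen. The alternatives were fold and p thresholds, normalization, eBayes options, arrays in the fit, the methods' t-test, spread filter, replicate block, distance measure, probe sets per gene and leaving out clones.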

Additional observations from a re-analysis of the deposited data

Results flagged for a closer look

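In 12 of 170 groups of 4 clones 1 clone lay far from the other 3 by Dixon's test, a test that picks out about 1 in 20 groups by chance. That rate does not hold for the 40 probe sets named for a distant clone, a wide range or a call without a clone, which gave 4 of the 12, while the other 45 gave 8. In OE + EpEX clone 3 these were Pou5f1 (2.18, against −0.32 to 0.02 in the other 3), Tdgf1, a Nodal co-receptor (0.13, against −0.30 to −0.26), Tbx3, a T-box factor (−0.62, against −0.04 to 0.03), and Gm8267 (−1.87, against 0.49 to 0.52). In OE + EpEX clone 4 they were Ogn (2.96, against 0.53 to 0.79) and Smagp (−0.14, against 0.39 to 0.49). In KE + EpEX clone 3 they were Nanog (−0.15, against 0.46 to 0.50), Nr0b1, an orphan nuclear receptor (−0.66, against −0.04 to 0.06), Fbxo15 (−0.024, against 0.19 to 0.23), Fmod, a collagen-binding proteoglycan (0.19, against −0.01 to 0.01), and Sycp3 (1.31, against −0.10 to 0.12). In KE + EpEX clone 4 it was Sox2 (0.48, against −0.06 to −0.02). OE + EpEX clones 1 and 2 and KE + EpEX clones 1 and 2 were the distant clone for no gene tested.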

How the results depend on the processing

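The count of 0 probe sets became 2446 at an unadjusted limma p and 2719 by the methods' t-test without adjustment (1086 higher and 1633 lower in OE + EpEX), but stayed at 0 in the other 11 planned settings that kept all clones, where the smallest adjusted p was 0.0729 (t-test) and 0.0836 (quantile normalization). With each clone left out it was 0 to 11, and 28 without OE + EpEX clone 4 and KE + EpEX clones 1 and 2, a setting chosen after the data were seen. Quantile normalization gave 5321 unadjusted calls and leaving the MEF arrays out of the fit gave 3723, against 2446. The cause was not tested. The replicate numbers paired no samples (same-number correlations of deviations −0.076, −0.062, 0.074 and −0.362), and with the replicate block the count was 0, with 2274 at an unadjusted p under 0.05.

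The distance between minus within groups turned to −0.0257 with symbol probe sets, −0.0489 with the 1000 most variable, and −0.0184 to 0.0182 with a clone left out, with exact permutation p from 0.2 to 0.8286 in the last. The median difference of the list of given factors (3 genes) became 0.51 after quantile normalization and −0.056 to 0.37 with a clone left out. That of the naive list lay between −0.28 and −0.11, and that of the solute carriers between −0.0079 and 0.128 with a clone left out. Of 101 named probe sets, 73 kept their direction over 12 settings and 28 did not, among them Pou5f1, Otx2, Cdh11, Ptn and Ogn. Detection cannot be judged from centred values.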
